A study of Mus musculus with 79 samples.

Results

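The 10 genes described here encode a neuregulin, 4 ligands of the epidermal growth factor (EGF) family, 3 receptors of the ErbB family and 2 membrane proteases that release or trim such ligands. They were taken by symbol (Nrg1, Hbegf, Areg, Ereg, Btc, Erbb2, Erbb3, Egfr, Adam17 and Bace1) from the 23361 genes of the deposited count tables, and all 10 were listed there. The tissue came from mice of both sexes that carry enhanced GFP under the human S100β promoter (S100β-eGFP), in which GFP marks Schwann cells (SC). A freshly cut common peroneal nerve was grafted to the distal tibial stump, either at once (immediate repair, after a sham incision 8 weeks earlier) or after the tibial nerve had been denervated for 8 weeks (delayed repair). Macrophages and SC were sorted from the bridge of single animals 5 and 14 days after repair, and the distal stump was taken at day 5. The libraries numbered 9 delayed and 7 immediate for the stump, 9 and 8 for macrophages at day 5, 7 and 8 for macrophages at day 14, 9 and 7 for SC at day 5, and 7 and 8 for SC at day 14.

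Neuregulin 1 is presented by axons and also made by injured Schwann cells, and it binds ErbB3, which has little kinase activity of its own and signals in a pair with ErbB2. This pair is known for its roles in Schwann cell survival, migration and myelination. The EGF receptor binds amphiregulin (Areg), epiregulin (Ereg), betacellulin (Btc) and heparin-binding EGF-like growth factor (Hbegf), which are made as membrane proteins and shed by metalloproteases. Adam17 is the main one for amphiregulin, epiregulin and Hbegf, and Adam10 for betacellulin. Bace1 is a protease that cleaves neuregulin 1.

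Macrophage libraries held 14928745 to 28499407 counts and stump libraries 3898778 to 9212709. The Schwann fraction described next held 11614940 to 30796823. Levels are given as CPM, counts scaled to the library total. Sorted cells went through cDNA amplification and stump RNA through rRNA depletion, so no test sets one kind of library against the other. The sorted SC libraries went against their label in part. S100b ranged from 0 to 49.5 CPM in them, while 8 dendritic cell markers (Cd74, Ccr7 and Flt3 among them) summed to between 17719 and 40190 CPM in each library. In macrophage libraries the same markers summed to 1036 to 4707 CPM at day 5 and 6857 to 17841 CPM at day 14. The sorted population is therefore called the Schwann fraction here. Sox10, a transcription factor that defines Schwann cells, reached 161 CPM in it at day 5 and 199 CPM at day 14, against at most 1.75 CPM in any macrophage library.

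In the distal stump, the receptor Erbb3 and the ligands Btc and Hbegf fell after delayed repair. Erbb2, Egfr and both proteases did not pass the test, and Nrg1, Areg and Ereg were too low to be tested. Erbb3 fell 3.83-fold, Btc 3.71-fold and Hbegf 2.14-fold in the edgeR fit. Of the 10 genes, 7 reached the minimum for testing (5 CPM in at least 6 libraries), with 3 lower and 0 higher at an adjusted p under 0.05. Across all 12229 genes tested in the stump, 26.3% passed and 13.5% were lower.

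Erbb3, the receptor that binds neuregulin, was between 12.8 and 104 CPM after delayed repair (median 43.2, n = 9) and between 99.3 and 249 CPM after immediate repair (median 169, n = 7). In 8 of 9 delayed libraries it lay below the lowest immediate library, and the other overlapped it. The log2 fold change was -1.94 (SE 0.33, edgeR adjusted p = 0.000489). Btc ranged from 10.1 to 67.1 CPM (median 22.4) after delayed repair and from 72.1 to 144 CPM (median 84.5) after immediate repair, so that the groups did not overlap. Its log2 fold change was -1.89 (SE 0.31, edgeR adjusted p = 0.000321). Hbegf ranged from 8.34 to 20.2 CPM (median 11.5) after delayed and from 17.7 to 37.8 CPM (median 30.3) after immediate repair, and 8 of 9 delayed libraries were below every immediate one. Its log2 fold change was -1.10 (SE 0.21, edgeR adjusted p = 0.00105).

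Erbb2, the kinase partner of ErbB3, had a median of 41.9 CPM (25.9 to 46.9) after delayed and 55.9 CPM (30.6 to 76.1) after immediate repair. All 9 delayed libraries lay under the immediate mean, but the groups overlapped and the log2 fold change of -0.42 (SE 0.18) had an edgeR adjusted p of 0.0896. Egfr was at 133 CPM (115 to 184) after delayed and 115 CPM (107 to 170.4) after immediate repair, with a log2 fold change of 0.24 (SE 0.13, edgeR adjusted p = 0.175). The protease Adam17 was at 184 CPM (154 to 203) and 161 CPM (119 to 196), a log2 fold change of 0.23 (SE 0.096, edgeR adjusted p = 0.0888). Leaving out 1 library changed these 3 results. Without immediate replicate 4, which had the highest Egfr level of its group, Erbb2 (-0.51, adjusted p = 0.0337), Egfr (0.33, adjusted p = 0.0409) and Adam17 (0.28, adjusted p = 0.0357) passed in edgeR as well, making 6 of 7. Erbb2 also passed without immediate replicate 8 (edgeR adjusted p = 0.0245). Bace1 was at 94.7 CPM (66.8 to 125) and 91.4 CPM (76.9 to 106), with a log2 fold change of 0.13 (SE 0.13, edgeR adjusted p = 0.492).

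The remaining ligands were near the limit of detection in the stump and were not tested. Nrg1 had a median of 3.06 CPM (1.03 to 6.46, 200 counts over 9 libraries) after delayed and 1.47 CPM (0.157 to 4.64, 107 counts over 7 libraries) after immediate repair. Ereg was at 1.77 CPM and 1.47 CPM. Areg was at 0.273 CPM and 0.21 CPM, from 19 and 11 counts in all.

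**Figure D1:**
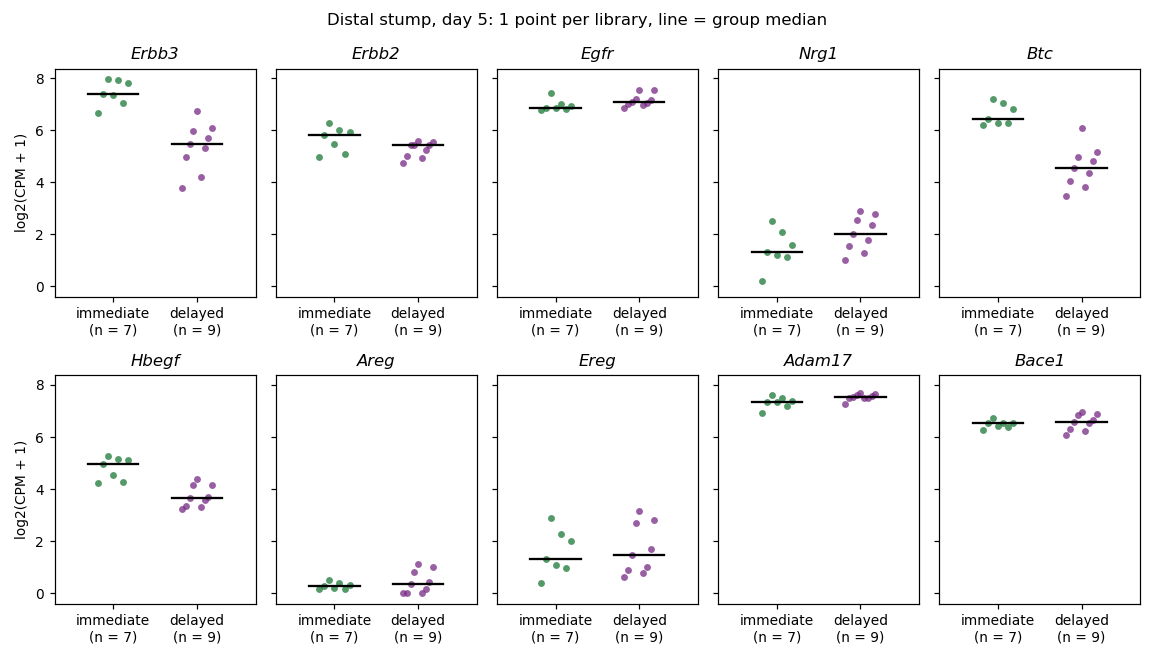
Level of the 10 genes in the distal stump at day 5 on the scale log2(CPM + 1), 1 point per library, with the group median as a line, for 7 immediate and 9 delayed libraries. Erbb3, Btc and Hbegf sit lower after delayed repair, Btc without overlap between groups, while Egfr, Adam17 and Bace1 overlap widely.

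Levels of different genes were compared per kilobase of the longest coding transcript in the GENCODE annotation. In immediate stumps the order by median was Adam17 (36.1 CPM per kilobase), Btc (29.4), Erbb3 (28.0), Bace1 (15.1), Hbegf (12.8), Egfr (11.2) and Erbb2 (11.2). In delayed stumps it was Adam17 (41.2), Bace1 (15.6), Egfr (13), Erbb2 (8.36), Btc (7.77), Erbb3 (7.18) and Hbegf (4.86). Erbb3 thus stood above its partner Erbb2 in the median of the immediate group and just under it in that of the delayed group.

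Markers of Schwann cells moved with these genes in the stump. The summed level of 12 such markers was 179 to 962 CPM after delayed and 1525 to 3476 CPM after immediate repair, with no overlap and none of the 12 at 0 throughout. S100b was at 1.75 to 17.2 CPM against 98.7 to 366 CPM. Fewer Schwann cells and less RNA per Schwann cell cannot be told apart in whole tissue. Of 8 macrophage markers 2 rose (Emr1 and Csf1r), with summed levels of 978 to 2973 CPM after immediate and 1987 to 3439 CPM after delayed repair. Of 6 endothelial markers 5 rose, with sums of 605 to 831 CPM and 906 to 1383 CPM. Of 7 dendritic cell markers tested 3 rose (Flt3, Cd74 and Xcr1), and of 4 mast cell markers 3 fell (Cpa3, Mcpt4 and Cma1) and Kit rose. Summed skeletal muscle markers were 1.63 to 6.14 CPM after immediate and 2.43 to 1944 CPM (median 9.29) after delayed repair. Summed T and NK cell markers overlapped, with medians of 2.98 CPM after immediate and 15.2 CPM after delayed repair. Their part in the results was not tested.

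The level of 4 genes was also divided by that of Sox10 in the same library, a comparison chosen after the values were seen. Sox10 RNA is no measure of cell number, and it fell 4.09-fold itself, so a higher ratio says only that a gene and Sox10 differed unequally between the groups. The ratio of Erbb3 to Sox10 was 1.59 to 2.64 (median 1.80) after delayed and 1.43 to 2.16 (median 1.67) after immediate repair. The mean log2 ratios differed by 0.15 (2-sided exact permutation test, p = 0.221, adjusted over 4 genes 0.294), which does not show them to be equal. Btc followed the same course, with medians of 1.10 and 1.05 and a log2 difference of 0.22 (exact permutation p = 0.319, adjusted 0.319). Erbb2 per Sox10 differed, at a median of 0.516 (0.424 to 0.549) after immediate and 1.56 (0.754 to 4.34) after delayed repair, without overlap (log2 difference 1.88, exact permutation p = 0.000175, adjusted 0.000699). Hbegf per Sox10 had medians of 0.263 (0.219 to 0.311) and 0.473 (0.275 to 1.22), a log2 difference of 1.15 (exact permutation p = 0.000699, adjusted 0.0014).

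Within the repair groups, Erbb3 and Sox10 also moved together from stump to stump. Over 16 libraries, taken as deviations from the group means on the scale log2(CPM + 1), Pearson's r was 0.962 (permutation p = 1e-05, the smallest that 100000 resamples can give, adjusted 0.000162) and Spearman's rho 0.938 (permutation p = 1e-05, adjusted 0.000162). Without the 2 libraries farthest from the median of Sox10, r was 0.931. For Btc, r was 0.868 (permutation p = 1e-05, adjusted 0.000162) and rho 0.809 (permutation p = 0.00029, adjusted 0.00236), and r was 0.805 without those libraries. The r of Btc was 0.938 within the delayed and 0.498 within the immediate group. Erbb2 (r = 0.760, permutation p = 0.00054, adjusted 0.00351) and Hbegf (r = 0.702, permutation p = 0.00217, adjusted 0.0083) followed Sox10 as well, with rho of 0.774 (permutation p = 0.00063, adjusted 0.00455) and 0.741 (permutation p = 0.00151, adjusted 0.00755). Without the 2 farthest libraries their r was 0.748 and 0.625. Egfr moved against Sox10, with r of -0.646 (permutation p = 0.00726, adjusted 0.0214), rho of -0.671 (permutation p = 0.00578, adjusted 0.0198) and r of -0.628 without those libraries. In all, 65 relations of this kind were computed over the stump and the Schwann fraction, and both values of a pair are shares of 1 library.

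**Figure D2:**
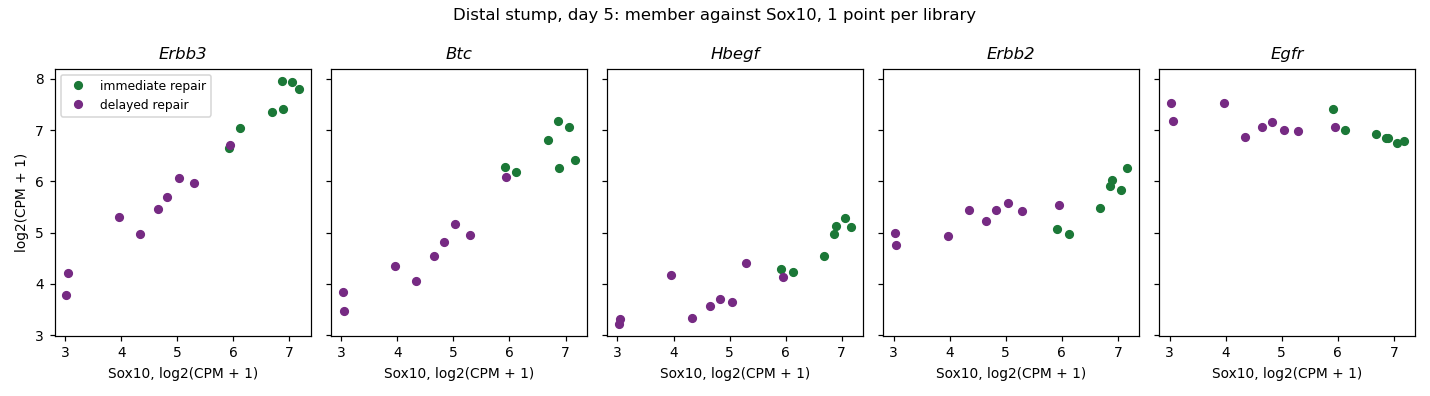
Level of 5 of the genes against that of Sox10 in each of the 16 distal stump libraries, both on the scale log2(CPM + 1), coloured by repair. Erbb3 and Btc lie along 1 line with Sox10 across both groups, Hbegf and Erbb2 along shallower ones, and Egfr falls as Sox10 rises.

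The genes whose profile over the 16 stump libraries was most like that of Erbb3 were Zfp536 (r = 0.991), Sox10 (0.988), Mmp17 (0.987), Shc4 (0.983) and Dtna (0.980), among 12228 others. For Nrg1 they were Ltb (0.867), Mdfi (0.856), Ncam1 (0.848), Slc7a6 (0.821) and Cdh3 (0.821). For Egfr they were Shox2 (0.911), Qsox1 (0.898), C3 (0.897), Vcam1 (0.894) and C1ra (0.883). These correlations are descriptions across libraries of both groups, ranked over all genes, and carry no test.

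Other genes of the pathway changed in both directions in the stump, where 26.3% of all genes passed, 12.8% higher and 13.5% lower. Among 7 further ligands and receptors only Tgfa, another ligand of the EGF receptor, reached the minimum. It was at 10.9 to 25.6 CPM after immediate and 2.23 to 6.79 CPM after delayed repair (log2 fold change -1.93, SE 0.25). Its immediate libraries alone met the minimum, so these values are a description and no p is given. Erbb4, the alternative neuregulin receptor, was at most 2.12 CPM. Of 15 sheddases and partners, 2 rose and 5 fell, with a median log2 fold change of 0.0078 against 0.019 over all genes. Frmd8, which stabilises the iRhom partners of Adam17, fell (-1.17, SE 0.13), as did the metalloprotease inhibitor Timp3 (-1.34, SE 0.26) and Bace2 (-0.87, SE 0.22). Adam10, named here for its part in Btc shedding and not by rank, was at -0.38 (SE 0.11, edgeR adjusted p = 0.0201). Rhbdf2, which encodes an iRhom, rose (0.43, SE 0.12). Of 18 adaptors and kinases, 3 rose and 3 fell, with the ERK kinase Mapk3 at -0.85 (SE 0.13). Of 17 inhibitors, 2 rose and 3 fell, including the phosphatase gene Dusp4 at -1.90 (SE 0.20) and Spry2 at -0.78 (SE 0.11). Of 8 genes known as ERK targets, 2 fell, Ccnd1 (-1.91, SE 0.22) and Etv4 (-0.98, SE 0.31), and 6 did not pass.

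The sorted cells of the bridge showed where the ligands and receptors were found. Macrophages held Hbegf, Adam17, Areg, Nrg1 and Ereg, while Erbb2 and Btc were at or near 0 there and Erbb3 and Egfr reached at most 3.68 and 4.97 CPM. The Schwann fraction held Erbb2, Erbb3 and Btc, with less Hbegf and Adam17 than macrophages of the same animals. With the animal as a block, 64.5% of 10074 genes differed between the fractions at day 5 (32.7% higher and 31.9% lower in the Schwann fraction) and 63.3% of 10596 at day 14 (34.0% higher and 29.3% lower). At day 5, 4 of the 9 members tested were higher and 5 lower in the Schwann fraction, and at day 14, 5 of 10 were higher and 3 lower. Genes that reached the minimum in 1 fraction only had to differ, so these counts are descriptions.

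Erbb3 was between 0.899 and 94.4 CPM in the Schwann fraction at day 5 and between 0 and 1.58 CPM in macrophages, and was higher in the Schwann fraction of 15 of 16 animals. At day 14 it was between 4.58 and 132 CPM against 0 to 3.68 CPM, higher in 15 of 15. Erbb2 reached 83.9 CPM in the Schwann fraction at day 5 and 166 CPM at day 14. Only 2 of 17 macrophage libraries held a count of Erbb2 at day 5 and 9 of 15 at day 14, at no more than 0.98 CPM. Egfr was low in both, with medians of 3.93 and 8.92 CPM in the Schwann fraction at days 5 and 14 and 0.0702 and 0.514 CPM in macrophages. It was higher in the Schwann fraction of 10 of 16 animals at day 5 and 14 of 15 at day 14. These 3 receptors reached the minimum through the Schwann fraction alone, so no fold or p is given.

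Areg, Ereg and Btc are neighbours on chromosome 5, and they differed in the fraction that held them. In the GRCm38 annotation Ereg lies at chr5:91074622-91093646 on the plus strand, Areg at chr5:91139599-91148432 on the plus strand and Btc at chr5:91357261-91402994 on the minus strand. Gaps of 45952 bases separate Ereg from Areg and 208828 bases Areg from Btc. Ereg was at 4.35 to 90.4 CPM in macrophages at day 5 and was higher there than in the Schwann fraction of 16 of 16 animals. At day 14 it was higher in macrophages in 9 of 15 animals and in the Schwann fraction in 6, where it reached 204 CPM. Btc had a count in 1 of 17 macrophage libraries at day 5 and in 1 of 15 at day 14, but reached 102 and 421 CPM in the Schwann fraction. Areg was in both, at 27.4 to 232 CPM in macrophages and 10.9 to 112 CPM in the Schwann fraction at day 5. Promoters from RefSeq (GRCm38.p6, 250 bases before to 50 bases after the start of the gene) are shown for the ligand of both fractions and the ligand of the Schwann fraction alone, read 5′ to 3′ on the strand of the gene, at chr5:91139349-91139648 (plus strand) for Areg and chr5:91402945-91403244 (minus strand) for Btc. Capitals mark matches, on either strand and without overlap between motifs, to any of 5 motifs spelled out after the sequences.
Areg: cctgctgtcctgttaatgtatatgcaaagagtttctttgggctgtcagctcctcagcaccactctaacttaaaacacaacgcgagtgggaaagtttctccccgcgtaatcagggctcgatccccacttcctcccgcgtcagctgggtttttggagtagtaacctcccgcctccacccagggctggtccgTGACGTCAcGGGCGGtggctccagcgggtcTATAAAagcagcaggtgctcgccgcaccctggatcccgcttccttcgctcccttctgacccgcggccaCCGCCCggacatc
Btc: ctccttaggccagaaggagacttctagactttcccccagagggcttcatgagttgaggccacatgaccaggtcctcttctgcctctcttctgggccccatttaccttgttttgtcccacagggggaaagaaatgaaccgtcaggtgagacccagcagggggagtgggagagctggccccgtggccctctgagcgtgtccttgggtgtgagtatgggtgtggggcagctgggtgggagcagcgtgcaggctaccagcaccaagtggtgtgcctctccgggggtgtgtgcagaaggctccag

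The Areg promoter held 1 cyclic AMP response element, spelled TGACGTCA, which was found in 1.79% of 32851 mouse promoters of this length. It held 1 match to the TATA box, spelled TATAAA, found in 13.6% of those promoters. There were 2 matches to the GC box, spelled GGGCGG, found in 35.7% of them. There was no match to the AP-1 site, spelled TGANTCA and found in 7.81% of promoters, and none to the SOX site, spelled ACAAAG and found in 18.7%. The Btc promoter held none of the 5 motifs in this window. CpG pairs numbered 21 in the first and 5 in the second.

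Hbegf was higher in macrophages than in the Schwann fraction of 16 of 16 animals at day 5. It was at 137 to 553 CPM in macrophages and 7.23 to 118 CPM in the Schwann fraction (log2 difference -3.27, SE 0.32, edgeR adjusted p = 5.61e-08). At day 14 the ranges overlapped, at 125 to 314 CPM against 29.9 to 292 CPM, and macrophages were higher in 11 of 15 animals (-1.36, SE 0.22, edgeR adjusted p = 2.6e-05). Nrg1 was higher in macrophages in 13 of 16 animals at day 5 (-1.01, SE 0.19, edgeR adjusted p = 0.000161) and in 11 of 15 at day 14 (-1.24, SE 0.40, edgeR adjusted p = 0.0109). Adam17 was higher in macrophages in 16 of 16 animals (-1.33, SE 0.11, edgeR adjusted p = 3.78e-09) and in 14 of 15 (-1.28, SE 0.11, edgeR adjusted p = 1.47e-08). For Areg the day 5 difference was small (-0.74, SE 0.31, edgeR adjusted p = 0.0452) and no longer passed with library size scaling (0.143), without the minimum (0.062) or when any of 11 animals was left out (highest 0.0902). At day 14 it was 0.0070 on the log2 scale (SE 0.21, edgeR adjusted p = 0.980). Bace1 was at 1.67 to 46.6 CPM in the Schwann fraction and 1.25 to 3.51 CPM in macrophages at day 14, and higher in the Schwann fraction of 14 of 15 animals. It reached the minimum through the Schwann fraction alone, so no p is given. At day 5 it was at most 11.9 CPM in the Schwann fraction and 3.62 CPM in macrophages and was not tested.

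**Figure D3:**
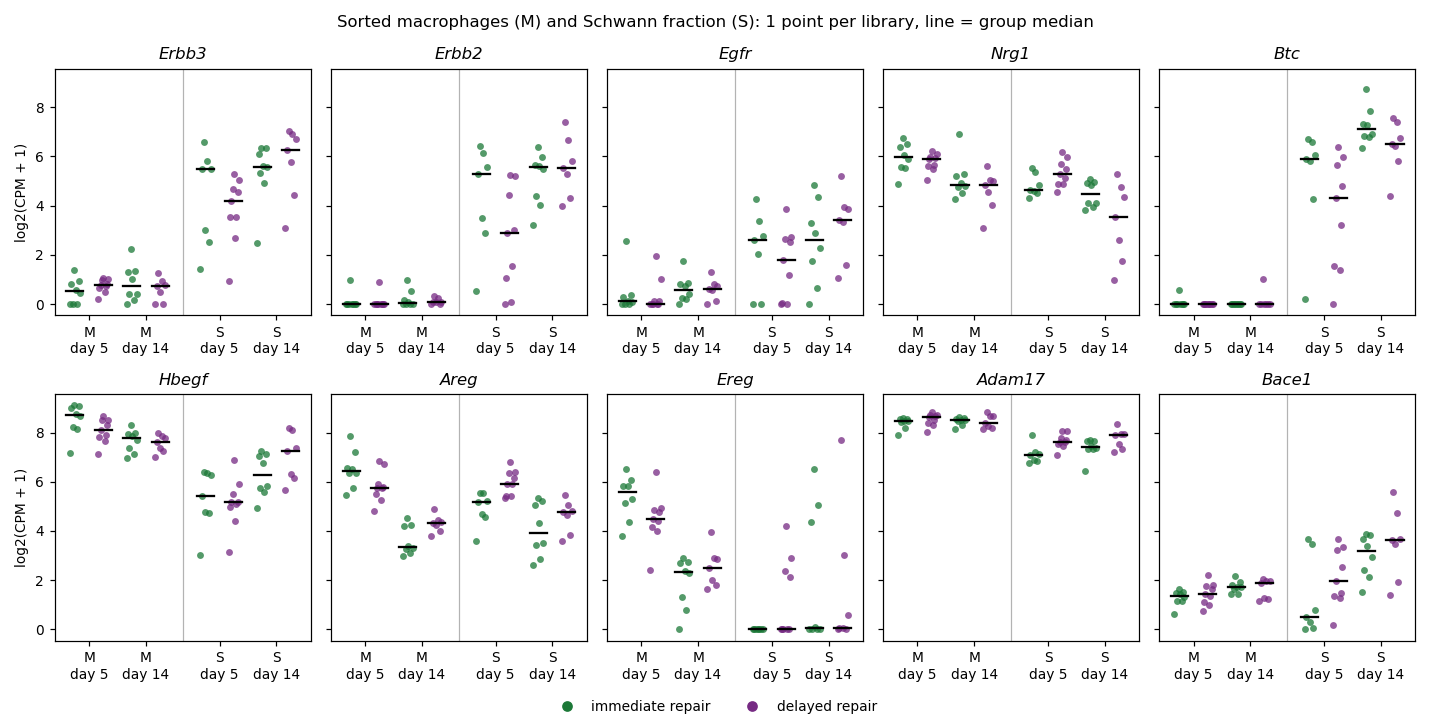
Level of the 10 genes on the scale log2(CPM + 1) in sorted macrophages (M) and the Schwann fraction (S) at days 5 and 14, 1 point per library with the group median as a line, coloured by repair. Btc and Erbb2 lie at or near 0 in macrophages and Ereg at or near 0 in most libraries of the Schwann fraction.

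Per kilobase of transcript, the order in immediate macrophages at day 5 was Hbegf (176 CPM per kilobase), Adam17 (79.1), Areg (71.5), Ereg (11.5) and Nrg1 (11.4). After delayed repair it was Hbegf (116), Adam17 (87.6), Areg (43.5), Nrg1 (10.8) and Ereg (5.14). In the Schwann fraction of immediate repair at day 14 it was Btc (47.6), Adam17 (37.9), Hbegf (34.2), Areg (12.1), Erbb2 (9.16), Erbb3 (7.83) and Nrg1 (4.10). After delayed repair it was Hbegf (63.5), Adam17 (53.6), Btc (31.1), Areg (21.7), Erbb3 (12.7), Erbb2 (8.93) and Nrg1 (1.98). These orders of medians were not tested. The profile of Hbegf over 32 macrophage libraries was most like that of Il10 (r = 0.841), Zfp131 (0.814), Rabgef1 (0.807), Cxcl2 (0.789) and Nfkbib (0.783). The profile of Erbb3 over 31 libraries of the Schwann fraction was most like that of Cttn (0.872), Dag1 (0.872), Nedd4 (0.869), Arhgap39 (0.867) and Vcl (0.866). Both are descriptions with no test, ranked over all genes.

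From day 5 to day 14, the macrophage ligands fell. Ereg fell 8.77-fold, Areg 5.63-fold, Nrg1 2.03-fold and Hbegf 1.85-fold, averaged over the repair groups, and Adam17 did not pass. These were 4 of 5 members tested, all lower, where 25.4% of 8949 genes passed and 12.9% were lower. Areg fell from 42.8 to 232 CPM (immediate) and 27.4 to 114 CPM (delayed) at day 5 to 7.01 to 22.4 CPM and 12.7 to 28.8 CPM at day 14. Only in the delayed group did the days overlap. The log2 fold change of Areg was -2.49 (SE 0.23, edgeR adjusted p = 1.61e-09). Ereg had medians of 47.5 CPM (immediate) and 21.2 CPM (delayed) at day 5 and of 4.04 and 4.58 CPM at day 14 (-3.13, SE 0.41, edgeR adjusted p = 1.06e-06). Nrg1 went from medians of 61.9 and 58.6 CPM to 27.9 and 27.7 CPM (-1.02, SE 0.24, edgeR adjusted p = 0.00189). Hbegf went from 419 and 276 CPM to 219 and 193 CPM (-0.88, SE 0.18, edgeR adjusted p = 0.000365). Adam17 stayed between 239 and 460 CPM in every macrophage library (-0.13, SE 0.089, edgeR adjusted p = 0.318).

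In the same macrophages 3 of the 6 dendritic cell markers tested rose (Cd74, H2-Ab1 and Itgax) and Ccr7 was at -1.22 (SE 0.58). The sum of all 8 was 1036 to 4707 CPM at day 5 and 6857 to 17841 CPM at day 14, without overlap, and none was at 0 throughout. Of 8 macrophage markers 4 fell (Emr1, Cd14, Cd68 and Itgam, the last by 0.86 on the log2 scale, SE 0.08). The neutrophil marker S100a8 fell as well (-1.73, SE 0.31), while S100a9 and Csf3r did not pass. The endothelial marker Pecam1 (-1.41, SE 0.18) and the perineurial marker Slc2a1 (-0.66, SE 0.094) also fell. Their part in the fall of the ligands was not tested. Over all genes of these macrophages 25.4% passed, 12.5% higher and 12.9% lower. Among ERK targets, 3 of 6 tested fell, Phlda1 (-1.33, SE 0.14), Ier3 (-0.61, SE 0.11) and Etv5 (-0.65, SE 0.14), and 0 rose. Among 11 inhibitors tested, 1 rose and 2 fell, with Errfi1, a feedback inhibitor of the EGF receptor, at -0.95 (SE 0.13). Of 11 sheddases and partners, 1 rose and 3 fell. Of 17 adaptors and kinases, 3 rose and 3 fell.

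In the Schwann fraction, Hbegf and Btc rose from day 5 to day 14 while Areg and Nrg1 fell. With Ereg, 3 of 10 members rose and 2 fell, where 19.6% of 10923 genes passed, 7.68% higher and 11.9% lower. Hbegf went from medians of 42.1 CPM (immediate) and 35.2 CPM (delayed) to 81.1 and 151 CPM (1.14, SE 0.32, edgeR adjusted p = 0.0112), a direction opposite to that in macrophages. Btc went from 58.0 and 18.9 CPM to 137 and 89.5 CPM (1.59, SE 0.56, edgeR adjusted p = 0.0433). The call of Btc was lost when any of 16 of the 31 libraries was left out (adjusted p up to 0.0748), with filterByExpr (0.0509) and without the minimum (0.0505). Areg fell from 35.3 and 59.3 CPM to 14.7 and 26.4 CPM (-1.27, SE 0.28, edgeR adjusted p = 0.00173). Nrg1 fell from 23.5 and 38.5 CPM to 22.2 and 10.7 CPM (-1.14, SE 0.34, edgeR adjusted p = 0.0191), so its medians differed mainly in the delayed group.

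Ereg passed in the Schwann fraction on few libraries. It had no count in 7 of 7 immediate libraries at day 5, which allows up to 0.15 CPM in the shallowest of them (3 counts, counting error only), and 5 of 9 delayed libraries were at 0 as well. At day 14 its highest levels were 204 CPM in delayed replicate 1 and 90.2 CPM in immediate replicate 1, and the group medians were 0.0459 and 0.0347 CPM. Its fitted log2 fold change of 7.12 (SE 1.98, edgeR adjusted p = 0.0131) depends on the prior count, and the call was lost with the replicate number as a block. The receptors had higher medians at day 14 but did not pass. Erbb3 had a log2 fold change of 1.07 (SE 0.45, edgeR adjusted p = 0.0927), which passed with DESeq2 (0.0444) and without immediate replicate 1 of day 5 (0.0371). Erbb2 was at 1.12 (SE 0.61, edgeR adjusted p = 0.206) and Egfr at 0.90 (SE 0.84, edgeR adjusted p = 0.490). Bace1 was at 1.32 (SE 0.66, edgeR adjusted p = 0.162) and Adam17 at -0.028 (SE 0.12, edgeR adjusted p = 0.904).

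**Figure D4:**
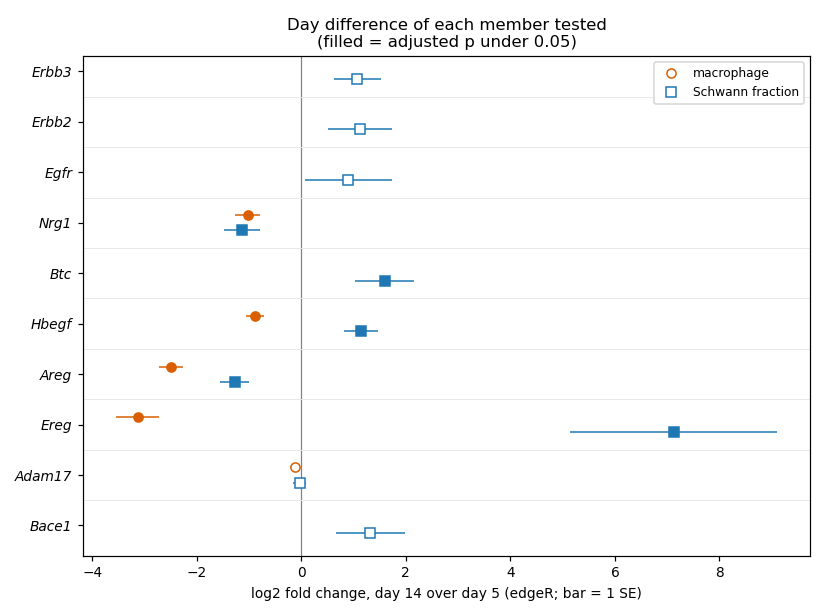
Log2 fold change of day 14 over day 5, with bars of 1 SE, for the members tested in macrophages (5 genes) and in the Schwann fraction (10 genes), averaged over the repair groups. Hbegf lies below 0 in macrophages and above 0 in the Schwann fraction, and Areg and Nrg1 lie below 0 in both.

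In the same libraries 7 of 12 Schwann cell markers and 1 of 6 fibroblast markers (Col1a1) rose with the day. Gfra3, 1 of the 7, reached the minimum through day 14 alone. Of 8 dendritic cell markers Xcr1 rose (1.31, SE 0.43) and 3 fell, Flt3 (-0.93, SE 0.18), Zbtb46 (-0.73, SE 0.17) and Ccr7 (-0.71, SE 0.21). Summed Schwann cell markers were 249 to 1508 CPM (immediate) and 241 to 741 CPM (delayed) at day 5 and 680 to 2445 and 866 to 4888 CPM at day 14. In macrophages at day 5 the same sum was 567.5 to 929.8 CPM (immediate) and 424.6 to 951.4 CPM (delayed). There 3 and 6 of the 12 markers, in that order, were at 0 throughout. The ranges overlapped, so at day 5 this sum did not set the Schwann fraction apart from macrophages. Summed fibroblast markers went from 13.2 to 7747 CPM over both groups at day 5 to 675 to 15669 CPM at day 14. Their part in these changes was not tested. At day 5 (n = 16), Erbb3 followed Sox10 among the libraries, as deviations from the repair group means. Pearson's r was 0.802 (permutation p = 0.00019, adjusted 0.00159), rho 0.771 (permutation p = 0.00078, adjusted 0.00507) and r without the 2 farthest libraries 0.800. For Btc at day 5, r was 0.800 (permutation p = 0.00011, adjusted 0.00119), rho 0.906 (permutation p = 1e-05, adjusted 0.000162) and r 0.781 without them. For Erbb2 at day 5, r was 0.839 (permutation p = 5e-05, adjusted 0.00065), rho 0.885 (permutation p = 2e-05, adjusted 0.00026) and r 0.853 without them. At day 14 (n = 15) the r of Btc with Sox10 was 0.618 (permutation p = 0.0158, adjusted 0.0395) and rho 0.379 (permutation p = 0.164, adjusted 0.289), and r was 0.207 without the 2 farthest libraries, so the relation rested on them. The r of Erbb3 with Sox10 at day 14 was 0.821 (permutation p = 0.00075, adjusted 0.00443) and rho 0.589 (permutation p = 0.0233, adjusted 0.0573), but r was 0.500 without the 2 farthest libraries, so the relation rested in part on them. Erbb2 at day 14 had r of 0.790 (permutation p = 0.00022, adjusted 0.00159), rho of 0.779 (permutation p = 0.00103, adjusted 0.00609) and r of 0.689 without them. Hbegf at day 14 had r of 0.680 (permutation p = 0.00316, adjusted 0.0108), rho of 0.664 (permutation p = 0.00822, adjusted 0.0254) and r of 0.436 without them. At day 14 (n = 15), Erbb3 fell as the dendritic markers rose, with r of -0.756 (permutation p = 0.00173, adjusted 0.00731), rho of -0.857 (permutation p = 9e-05, adjusted 0.000975) and r of -0.788 without the 2 farthest libraries. Hbegf did so too, with r of -0.709 (permutation p = 0.00236, adjusted 0.00852), rho of -0.754 and r of -0.831 without those libraries. So did Erbb2 (r = -0.690, permutation p = 0.00479, adjusted 0.0151) and Egfr (r = -0.682, permutation p = 0.00488, adjusted 0.0151). Their r was -0.588 and -0.493 without those libraries. Areg, Btc, Adam17 and Bace1 did not pass. Nrg1 rose with the same markers at day 14, with r of 0.655 (permutation p = 0.00864, adjusted 0.0234), rho of 0.543 (permutation p = 0.0386, adjusted 0.0836) and r of 0.468 without the 2 farthest libraries. The corresponding r of Erbb3 with the dendritic markers at day 5 was -0.131 (permutation p = 0.624, adjusted 0.751). That of Nrg1 at day 5 was -0.473 (permutation p = 0.0664, adjusted 0.121), with the sign opposite to day 14.

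Among pathway genes of the Schwann fraction, 4 of 16 inhibitors tested rose and 4 fell with the day, where 7.68% of all genes rose and 11.9% fell. Spry2 and Socs5 (1.18, SE 0.27) rose, and Cblb (-1.06, SE 0.16) and Dusp5 (-0.76, SE 0.15) fell. Spry2 reached the minimum through day 14 alone, so no fold is given for it. Of 15 sheddases and partners, 3 rose, with Timp3 at 1.86 (SE 0.45) and Rhbdf1 at 1.59 (SE 0.40), and 1 fell, Rhbdf2 (-0.65, SE 0.12). Of 18 adaptors and kinases, 1 rose and 5 fell. Of 7 ERK targets tested, Myc rose (1.47, SE 0.29) and Ier3 fell (-0.55, SE 0.15).

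Repair itself moved none of the members past the threshold in the sorted cells. In macrophages, 0 of 5 members passed at day 5 and 0 of 5 at day 14, where 0.0357% of 8409 and 0% of 8589 genes passed. The Schwann fraction gave 0 of 8 at day 5 and 0 of 9 at day 14, where 0% of 9604 and 0% of 10226 genes passed. The members with an unadjusted p under 0.05 numbered 2, 1, 2 and 1 in these comparisons, and DESeq2 called 0 members in each. Over all genes, an unadjusted p under 0.05 was reached by 435 and 190 in macrophages and 505 and 373 in the Schwann fraction, and DESeq2 called 17, 0, 14 and 3.

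Areg had an unadjusted p under 0.05 in 3 of these 4 comparisons, and not in 1 direction. In macrophages at day 5 it was at 27.4 to 114 CPM (median 52.8) after delayed and 42.8 to 232 CPM (median 86.9) after immediate repair (log2 fold change -0.87, SE 0.32, edgeR adjusted p = 0.793). At day 14 the order of the medians was reversed, 19.3 CPM (12.7 to 28.8) after delayed and 9.14 CPM (7.01 to 22.4) after immediate repair (0.65, SE 0.25, edgeR adjusted p = 1). In the Schwann fraction at day 5 it was at 39.2 to 112 CPM (median 59.3) after delayed and 10.9 to 45.7 CPM (median 35.3) after immediate repair, with 6 of 9 delayed libraries above every immediate one (1.02, SE 0.31, edgeR adjusted p = 0.751). None of these differences passed over all genes. Summed macrophage markers in the Schwann fraction at day 5 were at 205 to 4898 CPM (median 1547) after delayed and 114 to 1764 CPM (median 457) after immediate repair. Of these 8 markers 0 passed and none was at 0 throughout, and their part in the values of Areg, Adam17 and Nrg1 in this fraction was not tested.

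The other ligands of macrophages had lower medians after delayed repair at day 5. Hbegf was at 276 CPM (137 to 410.0) against 419 CPM (143 to 553), a log2 fold change of -0.58 (SE 0.27, edgeR adjusted p = 0.923). Ereg was at 21.2 CPM (4.35 to 82.6) against 47.5 CPM (12.8 to 90.4), a log2 fold change of -0.88 (SE 0.44, edgeR adjusted p = 0.934). Nrg1 was at -0.32 (SE 0.22, edgeR adjusted p = 0.975) and Adam17 at 0.073 (SE 0.12, edgeR adjusted p = 0.977). At day 14 the log2 fold changes were -0.11 (SE 0.18) for Hbegf, 0.73 (SE 0.61) for Ereg, -0.58 (SE 0.41) for Nrg1 and 0.033 (SE 0.13) for Adam17. The day 14 medians of Nrg1 were alike, 27.7 CPM after delayed and 27.9 CPM after immediate repair. Immediate replicate 1 was at 118 CPM there and the next library at 37.5 CPM.

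In the Schwann fraction at day 5, the receptors varied more between libraries than between groups. Erbb2 ranged from 0 to 36.9 CPM (median 6.41) after delayed and from 0.456 to 83.9 CPM (median 38.4) after immediate repair (-1.6, SE 1.06, edgeR adjusted p = 0.921). Erbb3 ranged from 0.899 to 38.1 CPM (median 17.3) and from 1.65 to 94.4 CPM (median 43.5) (-0.98, SE 0.69, edgeR adjusted p = 0.921). Btc ranged from 0 to 83 CPM (median 18.9) and from 0.14 to 102 CPM (median 58.0) (-1.06, SE 0.98, edgeR adjusted p = 0.957). Adam17 was at 194 CPM (136 to 269) against 135 CPM (107 to 239), a log2 fold change of 0.51 (SE 0.16, edgeR adjusted p = 0.807). Nrg1 was at 38.5 CPM (22.4 to 70.8) against 23.5 CPM (19.1 to 45.8) (0.52, SE 0.29, edgeR adjusted p = 0.913). Hbegf was at -0.26 (SE 0.47) and Egfr at -0.74 (SE 1.29). Sox10 itself had medians of 10.1 CPM (0 to 82.4) after delayed and 72.4 CPM (14.7 to 161) after immediate repair in these libraries. Within the repair groups Erbb2, Erbb3 and Btc followed Sox10 among them, with the r given above. The part of Sox10 in the repair differences of these genes was not tested.

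At day 14 the medians of Erbb2 were close, 44.8 CPM after delayed and 45.9 CPM after immediate repair (0.55, SE 0.49), and Erbb3 was at 76.6 and 47.1 CPM (0.53, SE 0.51). Both turned to the other side of 0 with sample quality weights in limma-voom (-0.025 and -0.21). Btc was at 89.5 CPM (20.2 to 190.0) after delayed and 137 CPM (80.7 to 421) after immediate repair (-0.83, SE 0.39, edgeR adjusted p = 0.998). Hbegf was at 151 CPM (50.2 to 292) and 81.1 CPM (29.9 to 151) (0.75, SE 0.38, edgeR adjusted p = 0.998). Bace1 was at 11.5 CPM (1.67 to 46.6) and 8.11 CPM (1.88 to 13.6) (0.93, SE 0.58, edgeR adjusted p = 0.998). The log2 fold changes of Nrg1 (-0.66, SE 0.59), Egfr (0.48, SE 0.89), Areg (0.38, SE 0.44) and Adam17 (0.36, SE 0.18) did not pass either.

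**Figure D5:**
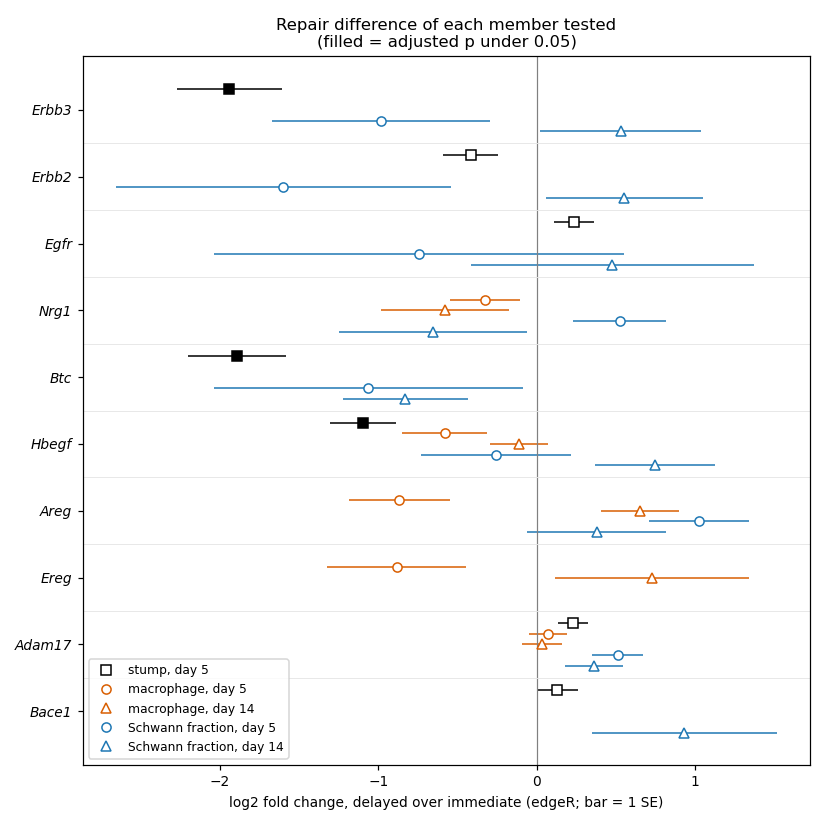
Log2 fold change of delayed over immediate repair, with bars of 1 SE, for each member tested in the stump, macrophages and the Schwann fraction. Filled symbols, all in the stump (Erbb3, Btc and Hbegf), have an edgeR adjusted p under 0.05.

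Whether the repair difference changed with the day was tested as an interaction. In macrophages 0 of 5 members passed (0.0223% of 8949 genes did), with 2 at an unadjusted p under 0.05 and 0 by DESeq2. Areg had the smallest p, a log2 difference of 1.52 (SE 0.43, edgeR adjusted p = 0.687). The values of the other members were 1.62 (SE 0.76) for Ereg, 0.48 (SE 0.35) for Hbegf, -0.25 (SE 0.47) for Nrg1 and -0.038 (SE 0.18) for Adam17. For the Schwann fraction 0 of 10 members passed (0% of 10923 genes). Only Ereg had an unadjusted p under 0.05 there, and it was the 1 member called by DESeq2, on libraries mostly at 0. The receptors were at 2.14 (SE 1.21) for Erbb2, 1.50 (SE 0.89) for Erbb3 and 1.23 (SE 1.66) for Egfr. The ligands were at -1.16 (SE 0.68) for Nrg1, 0.998 (SE 0.63) for Hbegf, -0.62 (SE 0.55) for Areg and 0.23 (SE 1.10) for Btc, and the proteases at -0.15 (SE 0.24) for Adam17 and 0.47 (SE 1.30) for Bace1. Whether the repair difference changed with the cell type was tested within animals, a test added after the values were seen. At day 5, with 16 animals, the repair difference of Areg was 1.65 higher in the Schwann fraction than in macrophages (SE 0.50, edgeR adjusted p = 0.762) and that of Adam17 0.55 higher (SE 0.17, edgeR adjusted p = 0.762). Nrg1 was at 0.86 (SE 0.34, edgeR adjusted p = 0.862) and Hbegf at 0.33 (SE 0.62, edgeR adjusted p = 0.970). Of 10074 genes 0 passed and 567 had an unadjusted p under 0.05. At day 14, with 15 animals, Hbegf was at 0.81 (SE 0.39), Nrg1 at -0.78 (SE 0.80), Areg at -0.16 (SE 0.43) and Adam17 at 0.32 (SE 0.21). Of 10596 genes 0 passed and 343 had an unadjusted p under 0.05. The other 6 members did not reach the minimum in both fractions, so no value is given for them.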

How the data were processed

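Per the labels and the study's methods, the authors trimmed reads with cutadapt 1.8, removed rRNA reads from stump libraries and aligned to mm10 with TopHat2 2.1.1. They named Cufflinks 2.2.1 (cuffnorm and cuffdiff) for quantification and tests. They deposited estimated counts per gene in 3 tables, of which 0.951% to 1.18% were not whole. The program that wrote them is not given in the sources used here. Counts were rounded here. Levels are CPM of the library total. Tests used edgeR 4.0.16 (quasi-likelihood, TMM, at least 5 CPM in at least 6 libraries of the fit, Benjamini-Hochberg adjustment over all genes tested, threshold 0.05) in R 4.3.3. SE was taken from the size of the fold change (log2) over the root of its F value. Comparisons between fractions kept the animal as a block. Alternatives were DESeq2 1.42.0, limma 3.58.1 (voom with quality weights), other scaling and filters, sex, replicate number and leaving out each library. The code was tested on simulated data. Samples were grouped by the labels, and 0 of 3081 pairs of libraries were identical.

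The members and lists were chosen with earlier results of these data known. The members tested are named in each comparison, except that the report gives tests between fractions only for members that reached the minimum in both fractions, and at most 4 called genes of each list, those with the smallest p. Ratios to Sox10, correlations with markers, the test of repair by cell type and the promoters shown were chosen after values were seen. Gene positions and lengths came from GENCODE M21 and promoters, matched for 5 of 10 members, from RefSeq.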

Additional observations from a re-analysis of the deposited data

Results flagged for a closer look

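Among 68 sets of libraries (1 gene in 1 group), 7 had a library far from the rest by Dixon's test, and chance alone gives about 1 in 20. The distal stump held 2 of them, Egfr at 170 CPM in immediate replicate 4, where the next library had 127 CPM, and Adam17 at 154 CPM in delayed replicate 4, where the next had 178 CPM. In macrophages of immediate repair at day 14, Nrg1 was at 118 CPM in replicate 1 and at most 37.5 CPM in the others. In the Schwann fraction of immediate repair at day 5, Btc was at 0.14 CPM in replicate 3 (next 18.2 CPM) and Adam17 at 239 CPM in replicate 7 (next 148 CPM). At day 14, replicate 5 of the same repair group was lowest in both Erbb3 (4.58 CPM, next 29.1 CPM) and Adam17 (85.2 CPM, next 160.5 CPM).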

How the results depend on the processing

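Of 2303 fold changes refitted under the alternatives, 2210 kept their direction and side of the threshold, 42 no longer passed, 12 passed newly and 39 changed sign, all of them values that had not passed. Erbb3, Btc and Hbegf in the stump and the 4 ligands that fell with the day in macrophages passed under every alternative run. The number of members called in the stump ranged from 3 to 6 when a library was left out. DESeq2 called 1 member in repair by day in the Schwann fraction. For repair, the genes called over the whole table went from 3 in macrophages at day 5 to 17 with DESeq2, 8 with sex as a covariate, 6 with all 4 groups in 1 fit and 1 to 3 without 1 library. In the Schwann fraction at day 5 they went from 0 to 14, 1, 2 and 0 to 1 in the same order, and at day 14 from 0 to 3 with DESeq2. For repair by day they went from 2 in macrophages to 9 with DESeq2, 0 with library size scaling and 0 to 3 without 1 library, and from 0 to 9 with DESeq2 in the Schwann fraction. The cause of these shifts was not tested.

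Signs turned with voom weights for Hbegf (0.018) and Adam17 (-0.054) in macrophages at day 14, Hbegf (0.27) in the Schwann fraction at day 5, and Erbb2 (-0.025) and Erbb3 (-0.21) at day 14. Adam17 by day in the Schwann fraction turned with DESeq2 (0.012) and library size scaling (0.18), and Areg between fractions at day 14 with filterByExpr (-0.030) and no minimum (-0.030). Without 1 library, repair values ranged from -0.055 to 0.084 for Adam17 in macrophages and from -0.055 to 0.99 for Egfr in the Schwann fraction, both at day 14. Repair by day ranged from -0.46 to 0.25 for Nrg1 and -0.13 to 0.018 for Adam17 in macrophages, and -0.21 to 0.74 for Bace1 in the Schwann fraction. Adam17 by day in the Schwann fraction ranged from -0.080 to 0.040, and Areg between fractions at day 14 from -0.11 to 0.095.

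With the replicate number as a block, 12 genes were called for repair in macrophages at day 5, Bace1 turned to -0.0036 in the stump and to -1.6 in repair by day in the Schwann fraction, and Ereg by day in the Schwann fraction no longer passed (5.74, adjusted p = 0.123 in edgeR). Ereg between fractions at day 14 reached the minimum in macrophages alone and is no result, and its fitted value turned to 1.94 without the animal block. Nothing in the labels says that same-numbered libraries share a source, so the numbers were not used as pairs in the main fits. Pairs with a correlation above 0.1 numbered 1 of 7 in the stump, 7 of 8 and 6 of 7 in macrophages, and 3 of 7 and 3 of 7 in the Schwann fraction. The median r was 0.254 and 0.256 in macrophages at days 5 and 14. There 3 of 8 and 5 of 7 delayed libraries correlated best with the immediate library of their own number. Same-numbered macrophage libraries thus tended to vary together, which the main fits do not take into account. Nrg1, Areg and Ereg were under the minimum in the stump.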

Other observations

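Nrg1 in the Schwann fraction of delayed repair at day 14 was at 0.947 to 10.7 CPM in 4 males and 19.5 to 38.5 CPM in 3 females, which do not overlap. After immediate repair the ranges were 12.9 to 27.9 CPM in 4 males and 16.4 to 32.4 CPM in 4 females. This split was noticed after values were seen, in 1 small group, and was not tested. How many other genes split by sex in this way was not counted, so no sex difference is drawn from it. Among the 4 delayed males, 3 had the highest Schwann marker sums of their group (3864 to 4888 CPM), and within that group Nrg1 had an r of -0.756 with those sums and of 0.692 with the dendritic marker sum (n = 7, a description). Summed neutrophil markers reached 8079 CPM in the highest library of the Schwann fraction of immediate repair at day 14, where the group median was 22.6 CPM.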
